A study of Homo sapiens with 6 samples.

Results

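CD99L2 and CD99 are related genes of the human X chromosome, and their RNA levels were examined in H358 cells after knockdown of the epithelial splicing regulators ESRP1 and ESRP2. CD99L2 was chosen by its FPKM difference between these same libraries, the largest rise among ordinary protein-coding genes, and CD99 because it is the founding relative of the family. Both were found by their symbols, each in a single row, which makes 2 of the 54607 rows of the table. Because this contrast chose CD99L2, the values of both genes are given as a description, without a test.

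RNA was sequenced from 2 groups of H358, an epithelial line established from a human lung cancer. The ESRP KD group carried lentiviral short hairpin RNAs against both ESRP1 and ESRP2, and the CTRL group carried a control knockdown. Each group held 3 libraries, which the study's design text calls biological triplicates. The unit is FPKM, the number of fragments divided by transcript length and by library size, so levels of different genes can be compared per length. No source used here gives the hairpin sequences or says whether the cells were pools or clones. Each group has its own constructs, and in this design what they do beside lowering ESRP cannot be told apart from the loss of ESRP. Nor can more RNA per cell be told apart from more cells with the RNA, since the libraries are from bulk cultures.

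CD99 and CD99L2 encode small single-pass membrane glycoproteins with an extracellular part that has no immunoglobulin fold. On blood and endothelial cells both take part in the passage of leukocytes across the vessel wall, where CD99 acts after PECAM1 and signals through adenylyl cyclase and protein kinase A. CD99 is also a diagnostic surface marker of Ewing sarcoma, and in mice Cd99l2 contributes to the entry of neutrophils into inflamed tissue. The family has a further member, XG, which carries the Xg blood group antigen, and a transcribed pseudogene, CD99P1, that lies beside CD99. ESRP1 and ESRP2 bind RNA and set epithelial patterns of exon use, and a value per gene does not show exon use.

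The DNA before the start of each gene is shown so that the promoters of both members can be read beside their RNA levels. The sequences are the 250 bases upstream of the RefSeq start in build GRCh38.p14, taken on the strand of the gene, CD99L2 at chrX:150898669-150898918 on the minus strand and CD99 at chrX:2691045-2691294 on the plus strand. Capitals mark the GC box, the letters GGGCGG or their complement CCGCCC, which Sp1-family factors recognise.
CD99L2: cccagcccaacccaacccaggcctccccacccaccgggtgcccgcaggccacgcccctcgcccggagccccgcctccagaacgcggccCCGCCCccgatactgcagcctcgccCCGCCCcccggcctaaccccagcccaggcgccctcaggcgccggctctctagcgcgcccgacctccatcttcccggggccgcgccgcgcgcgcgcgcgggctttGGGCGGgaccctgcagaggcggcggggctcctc
CD99: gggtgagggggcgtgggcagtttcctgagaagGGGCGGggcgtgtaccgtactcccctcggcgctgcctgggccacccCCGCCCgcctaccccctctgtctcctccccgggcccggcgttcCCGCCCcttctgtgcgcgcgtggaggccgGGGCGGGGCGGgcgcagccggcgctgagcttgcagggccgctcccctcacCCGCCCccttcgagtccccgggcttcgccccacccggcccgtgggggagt
The CD99L2 stretch held 3 GC boxes, 1 in the forward and 2 in the reverse orientation, and the CD99 stretch held 6, with 3 in each orientation, of which 2 overlap each other. Of 27305 promoters of the same length, 42.3% held at least 1 GC box, 14.0% held at least as many as CD99L2 and 2.26% at least as many as CD99. The letters TATAAA were found in neither stretch on either strand, against 11.1% of all promoters. Both stretches were rich in G and C, at 80.0% for CD99L2 and 78.0% for CD99, where the median promoter had 58.0%. The copy of the CD99 promoter that build GRCh38.p14 gives for the Y chromosome is identical to the one it gives for the X.

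The deposited rows place CD99L2 (ENSG00000102181) in hg19 at chromosome X, 149934810 to 150067289, on the minus strand, and CD99 (ENSG00000002586) at 2609220 to 2659350 on the plus strand. CD99 lies in the pseudoautosomal region that the X and Y chromosomes share, and the table lists it once, under X. How reads that match both copies, or the similar CD99P1, were assigned is not stated in the sources, so the levels of CD99 and CD99P1 are uncertain for that reason. GENCODE v29 annotates 9 transcripts of CD99L2, 437 to 4935 bases long, and 15 of CD99, 466 to 1291 bases long. An FPKM depends on the transcript lengths it was computed with, and use of these isoforms was not measured in a value per gene.

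The targeted genes were checked first. ESRP1 averaged 11.9 ± 0.298 FPKM in the knockdown, against 72.9 ± 0.565 FPKM in the control (SD, n = 3 each), and ESRP2 averaged 8.40 ± 0.316 FPKM in the knockdown, against 15.5 ± 0.363 FPKM in the control. For both, every knockdown library lay below every control library (limma adjusted p = 2.34e-08 for ESRP1 and 1.11e-04 for ESRP2). The cells were also checked against markers of epithelium, endothelium and leukocytes. The 6 epithelial markers, EPCAM, CDH1 and 4 keratins, summed to 3018 to 3113 FPKM in the knockdown, against 3485 to 3593 FPKM in the control, and 5 of them, all but EPCAM, were called lower by limma at an adjusted p below 0.05. Of all tested rows 16.7% were called, 6.54% higher and 10.2% lower. No row carried the symbol of PECAM1, a junction protein listed among the endothelial markers, so it has no value here. The other 4 endothelial markers summed to 1.60 to 1.85 FPKM in the knockdown, against 1.54 to 1.66 FPKM in the control, mostly from KDR, a VEGF receptor. The 5 leukocyte markers summed to 0.994 to 1.03 FPKM in the knockdown, against 1.24 to 1.27 FPKM in the control, and CD14 was the highest of them. CD14 averaged 0.537 FPKM in the knockdown, against 0.769 FPKM in the control, and PTPRC, which encodes the leukocyte antigen CD45, averaged 0.219 FPKM in the knockdown, against 0.229 FPKM in the control. These marker differences stand beside the results that follow, and their part in them was not tested.

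CD99L2 stood at 18.5, 17.7 and 18.3 FPKM in knockdown replicates 1, 2 and 3, against 7.58, 6.71 and 7.81 FPKM in control replicates 1, 2 and 3. All knockdown libraries were high, all control libraries were low, and the groups did not overlap. The lowest knockdown library lay 9.86 FPKM above the highest control library, while the libraries spanned 0.788 FPKM within the knockdown, against 1.10 FPKM within the control. The means were 18.2 ± 0.422 FPKM in the knockdown, against 7.37 ± 0.583 FPKM in the control (SD, n = 3 each), a 2.46-fold ratio. On the log2(FPKM + 1) scale, which understates the change of low genes, the difference was 1.20 (SE 0.06, from limma). With its level set among all tested rows of the same group, CD99L2 exceeded 62.7% of rows in the knockdown, against 36.5% in the control.

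CD99 stood at 75.3, 76.3 and 75.7 FPKM in the knockdown, against 78.6, 76.2 and 76.2 FPKM in the control, in replicate order. The groups overlapped, since knockdown replicate 2 lay above control replicates 2 and 3, and control replicate 1 was the highest of all. The means were 75.7 ± 0.494 FPKM in the knockdown, against 77.0 ± 1.38 FPKM in the control, and the log2 difference was -0.02 (SE 0.03). The difference in means, -1.25 FPKM, was smaller than the SD of the control. Its level exceeded 91.7% of tested rows in the knockdown, against 91.8% in the control. CD99 was the more abundant member per length in every library.

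**Figure D1:**
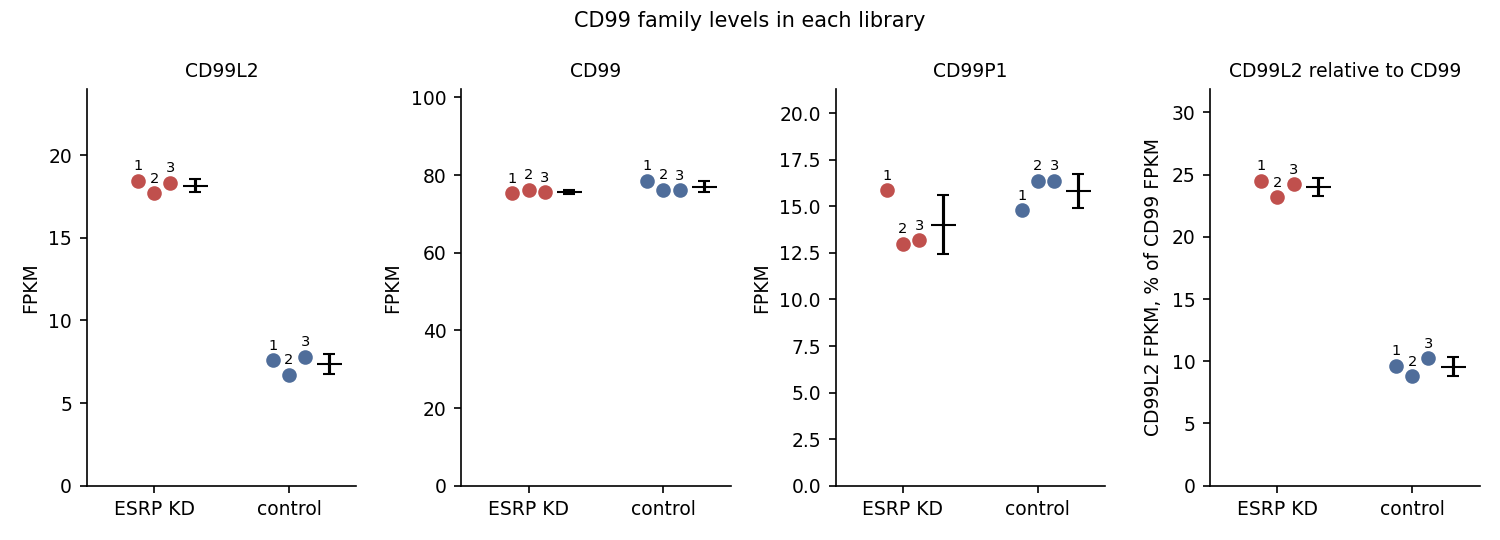
Levels in FPKM of CD99L2, CD99 and the pseudogene CD99P1, and CD99L2 as a percentage of CD99, in each library, with points numbered by replicate and the mean ± SD (n = 3) in black. CD99L2 separates the knockdown libraries (17.7 to 18.5 FPKM) from the control libraries (6.71 to 7.81 FPKM), while CD99 lies between 75.3 and 78.6 FPKM in all of them.

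The ratio of the members within a library does not depend on how libraries were scaled. The level of CD99L2 was 24.5%, 23.2% and 24.2% of that of CD99 in knockdown replicates 1, 2 and 3, against 9.65%, 8.80% and 10.3% in control replicates 1, 2 and 3. CD99 exceeded CD99L2 4.17 ± 0.125-fold in the knockdown, against 10.5 ± 0.816-fold in the control (SD, n = 3 each). The summed level of both members was 93.8 to 94.0 FPKM in the knockdown, against 82.9 to 86.2 FPKM in the control. The difference in means was 10.8 FPKM for CD99L2 and -1.25 FPKM for CD99.

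Total depth is unknown for FPKM values, and relative depth was estimated from the steps among low values. It was 0.993, 1.42 and 1.26 in knockdown replicates 1, 2 and 3, relative to control replicate 1, and 1.66 in both control replicates 2 and 3. These are estimates from 1 statistic, and the part of depth in the levels of the members was not tested.

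Of the other family members, CD99P1 was tested and not called, and XG was too low to test. CD99P1, the pseudogene whose row ends 33950 bases before that of CD99 begins, stood at 15.9, 13.0 and 13.2 FPKM in the knockdown, against 14.8, 16.4 and 16.4 FPKM in the control. Knockdown replicate 1 lay among the control libraries, and the log2 difference was -0.17 (SE 0.08, limma adjusted p = 0.176). Without that library the difference was -0.26 and was called (limma adjusted p = 0.0369). In the 12 other alternative fits CD99P1 was not called (limma adjusted p up to 0.3996). XG was listed at 0 in 5 libraries and at 0.0218 FPKM in knockdown replicate 2, and an exact 0 can be a failed estimate in such a table.

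Among all 13611 rows tested, those with a mean of at least 1 FPKM, CD99L2 held place 19 by log2 difference. Its first place among the 11666 rows that GENCODE types as protein coding follows from the way it was chosen. The median over all tested rows was -0.0021. None of the 18 rows above it was typed as protein coding: 8 were small nucleolar RNAs, 3 were processed pseudogenes and 3 had no match. Of these 18, 17 were at 0 in at least 1 library, and 12 were at 0 in all 3 control libraries. The other was a U1 row on chromosome 17 (56736510 to 56736666), a copy of a spliceosomal small RNA, at 20.4, 21.0 and 11.9 FPKM in the knockdown, against 7.02, 5.88 and 4.29 FPKM in the control. The rows above CD99L2 were led by the small nucleolar RNA SNORA71B, with a log2 difference of 3.05, followed by SNORA65, U6, SNORA70, RP11-478C6.4, 5S_rRNA, Y_RNA, SNORD89, a SCARNA23 row on chromosome 4, SNORA5A, SNORD94, the U1 row, RNU6ATAC, SNORA11B, AC015815.2, AC069257.6 and SNORA21. The nearest was the pseudogene AC108463.2, with 1.26. The 5 rows just below were SNORA70F, RP11-490K7.4, SNORA31, a SCARNA23 row on chromosome X and SNORA67, at 1.18 to 1.13, and each of these was at 0 in at least 1 control library.

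The protein-coding gene just outside the choice was TYMS, thymidylate synthase, with a log2 difference of 1.07 against 1.20 for CD99L2. Of 2042 other tested rows whose mean lay within 1.3-fold of that of CD99L2, the median absolute log2 difference was 0.09. For CD99 the 705 rows at its level had a median absolute difference of 0.07, and 14.6% of all tested rows had a smaller absolute difference than CD99.

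**Figure D2:**
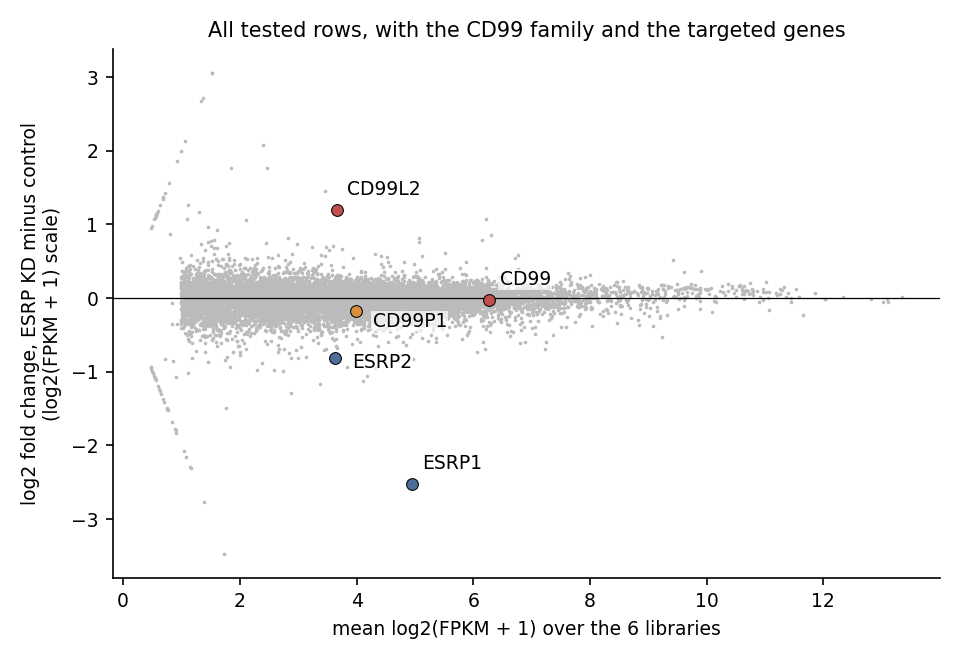
Log2 difference, ESRP KD minus control, on the log2(FPKM + 1) scale, against the mean log2(FPKM + 1) of each of the 13611 tested rows (grey), with the CD99 family and the targeted genes marked. CD99L2 lies at 1.20, above the main body of rows at its level, CD99 at -0.02 lies on the zero line, and ESRP1 lies at -2.52; the diagonal streaks at low levels are rows at 0 in most libraries.

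The genes beside the members were examined to see whether the difference in CD99L2 extended along the chromosome. Of 31 rows within 1 Mb of CD99L2, 17 were listed at 0, 10 were tested and 0 were called by limma (against 16.7% of all rows), none of them with an unadjusted p below 0.05 either, with log2 differences of -0.14 to 0.25. MTMR1, a myotubularin-related phosphatase gene whose end lies 1.23 kb from the end of CD99L2 on the other strand, stood at 17.4, 17.8 and 17.7 FPKM in the knockdown, against 16.3, 17.8 and 16.5 FPKM in the control. Its groups overlapped, and the log2 difference was 0.06 (SE 0.04, limma adjusted p = 0.327). HMGB3, a chromatin protein gene 81.7 kb away on the side of the CD99L2 promoter, averaged 107.7 ± 3.89 FPKM in the knockdown, against 112.5 ± 3.09 FPKM in the control (log2 difference -0.06, SE 0.04, limma adjusted p = 0.262). The 2 rows inside the span of CD99L2, RP11-316K19.3 and AF274573.1, were listed at 0 in every library.

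Around CD99, 8 of 33 rows within 1 Mb were tested and 1 was called by limma (against 16.7% of all rows). The called neighbour was PRKX, a cAMP-dependent protein kinase gene 863 kb away, which fell to 6.68, 6.34 and 6.54 FPKM in the knockdown, against 7.66, 7.16 and 8.19 FPKM in the control. Its log2 difference was -0.20 (SE 0.05, limma adjusted p = 0.0425), and the call was lost in each fit that left out 1 library except the one without control replicate 2 (adjusted p up to 0.126). GYG2, a glycogenin gene 87.5 kb from CD99, had a log2 difference of 0.07 (SE 0.09, limma adjusted p = 0.631). No row overlapped the span of CD99.

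**Figure D3:**
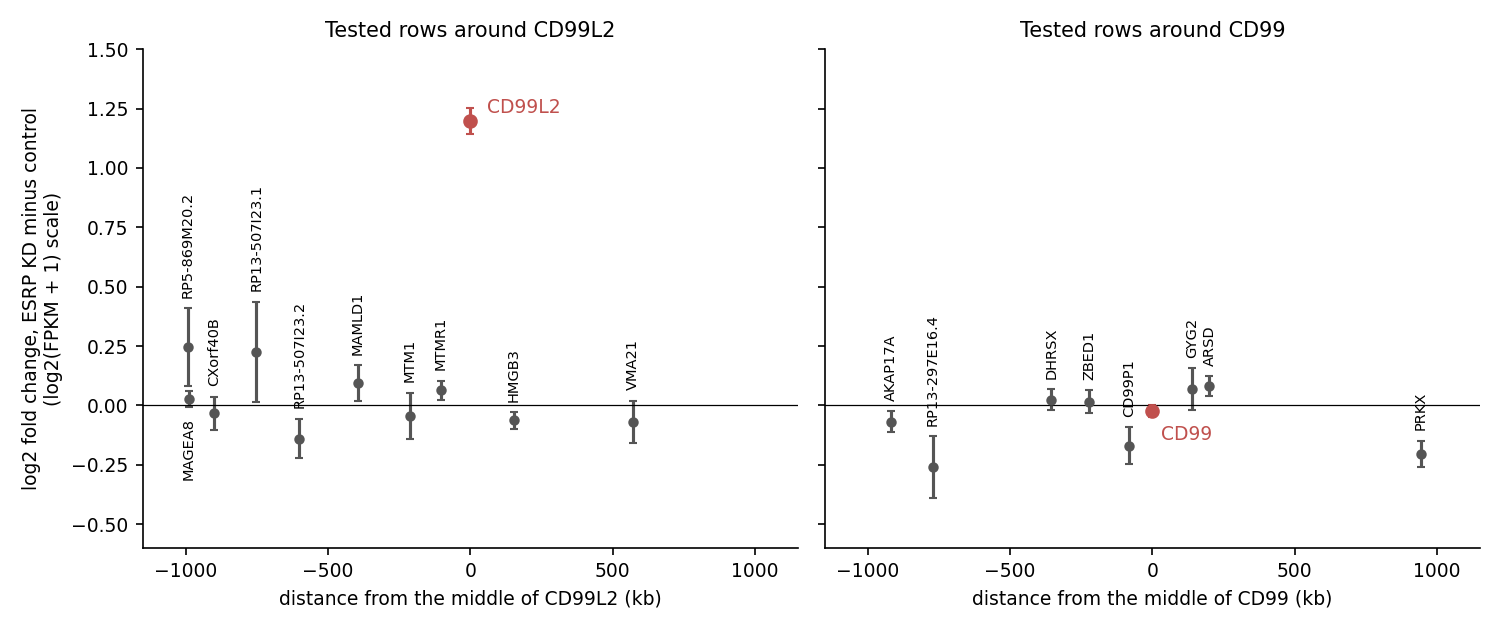
Log2 difference, ESRP KD minus control, with SE, of each tested row within 1 Mb of CD99L2 (left) and CD99 (right), against the distance of its middle from the middle of the member in kb. CD99L2 stands at 1.20, while its 10 tested neighbours lie between -0.14 and 0.25; CD99 lies at -0.02 among neighbours between -0.26 and 0.08.

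Over the 6 libraries, the rows whose log2 levels ran most like those of CD99L2 were SLIT2 (Pearson r = 0.998), PRDX2 (0.997), SLC46A1 (0.997), ZNF428 (0.996) and SPP1 (0.996). In all libraries of the knockdown they were higher than in the control, by log2 differences of 0.09 for SLC46A1 to 0.46 for ZNF428. These points share their libraries and fall into the same 2 groups, so rows that separate the groups score high, and 395 tested rows reached an r of at least 0.95. For CD99 the most similar rows were CEP350 (0.984), BAZ1A, TMEM74, C1orf116 and CYP51A1, each at its highest in control replicate 1, as CD99 was. The r between CD99L2 and CD99 was -0.58 over the 6 libraries.

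Of 14 surface proteins that act in leukocyte passage, as CD99 does, 13 were in the table and 7 reached the level needed for testing, of which 1 fell, 0 rose and 6 were not called by limma (14.3% called, against 16.7% of all rows). At an unadjusted p below 0.05, 2 were lower and 0 higher. The median log2 difference of the 7 was -0.01. ALCAM, a cell adhesion molecule that binds CD6 on lymphocytes, fell to 36.1 ± 1.17 FPKM in the knockdown, against 40.3 ± 0.151 FPKM in the control (SD, n = 3 each, log2 difference -0.15, SE 0.03, limma adjusted p = 0.0171). That call was lost without knockdown replicate 1 and without each control library in turn (limma adjusted p up to 0.0640). F11R, the epithelial junctional adhesion molecule JAM-A, averaged 119 ± 3.04 FPKM in the knockdown, against 117 ± 3.71 FPKM in the control. ICAM1, an integrin ligand, averaged 16.4 ± 1.02 FPKM in the knockdown, against 16.4 ± 0.629 FPKM in the control. PVR, the poliovirus receptor, averaged 60.4 ± 2.00 FPKM in the knockdown, against 61.0 ± 1.02 FPKM in the control. Among endothelial members, CDH5, VCAM1 and SELE stayed below 0.1 FPKM in both means, but others were higher. ESAM averaged 0.829 FPKM in the knockdown, against 0.716 FPKM in the control, and was not tested. ICAM2 averaged 1.22 FPKM in the knockdown, against 1.18 FPKM in the control, and was not called.

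Of 12 listed genes of CD99 signalling and binding, 10 were tested, of which 1 rose, 2 fell and 7 were not called (30.0% called, against 16.7% of all rows, median log2 difference 0.01). CAV1, which encodes the caveolar coat protein caveolin-1, averaged 193 ± 4.51 FPKM in the knockdown, against 165.5 ± 8.57 FPKM in the control (log2 difference 0.22, SE 0.04, limma adjusted p = 0.0107). SRC, a membrane-attached tyrosine kinase, fell to 14.3 ± 0.257 FPKM in the knockdown, against 17.6 ± 0.691 FPKM in the control (log2 difference -0.28, SE 0.04, limma adjusted p = 0.00409). CD81, a tetraspanin, fell to 99.1 ± 2.37 FPKM in the knockdown, against 107 ± 2.91 FPKM in the control (log2 difference -0.11, SE 0.03, limma adjusted p = 0.0465), a call lost in all 6 fits that left out 1 library (adjusted p up to 0.134). The CD81 call was also lost without the filter on low values (limma adjusted p = 0.0924). Fits without the intensity trend (0.0978) and with the replicate block (0.113) lost it too. The protein kinase A subunit genes on the list, PRKACA, PRKACB, PRKAR1A and PRKAR2A, had log2 differences of 0.05, -0.02, 0.10 and -0.10, and limma called none of the 4. Of the regulatory subunit genes outside the list, PRKAR2B rose to 10.1 ± 1.07 FPKM in the knockdown, against 7.42 ± 0.295 FPKM in the control (log2 difference 0.39, SE 0.07, limma adjusted p = 0.0119). PRKAR1B, a further regulatory subunit gene, rose to 13.6 ± 1.57 FPKM in the knockdown, against 10.7 ± 0.632 FPKM in the control (log2 difference 0.31, SE 0.08, limma adjusted p = 0.0343). When 1 library was left out, the PRKAR1B call was kept only if that library was knockdown replicate 3 (limma adjusted p up to 0.116). Without the filter on low values both calls were lost (limma adjusted p = 0.0519 for PRKAR2B and 0.115 for PRKAR1B), and that of PRKAR1B also without the intensity trend and with the replicate block (0.0555 and 0.0854). Both genes were named after their values were seen. EZR, which encodes ezrin, a linker of membrane and actin, averaged 142 ± 0.298 FPKM in the knockdown, against 138 ± 0.528 FPKM in the control (log2 difference 0.04, limma adjusted p = 0.224). ADCY10, the soluble adenylyl cyclase, was at 0.0701 FPKM in the knockdown, against 0.0528 FPKM in the control, below the level for testing.

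CD99 carries mucin-type sugars on serine and threonine, and the enzymes that build them were listed for that reason. Of 21 enzymes 19 were tested, of which 3 rose, 3 fell and 13 were not called (31.6% called, against 16.7% of all rows, median log2 difference 0.00077). The sugar-starting enzyme genes GALNT1 and GALNT7 rose (log2 differences 0.22 and 0.20), and GALNT12 fell (-0.24). GCNT1, which makes the core 2 branch, averaged 69.6 ± 1.58 FPKM in the knockdown, against 62.0 ± 1.13 FPKM in the control (log2 difference 0.16, SE 0.03, limma adjusted p = 0.00992). GCNT3, its relative in mucin-secreting epithelia, fell to 1.05 ± 0.158 FPKM in the knockdown, against 2.39 ± 0.124 FPKM in the control (log2 difference -0.73, SE 0.09, limma adjusted p = 0.00209). ST6GALNAC1, which caps the first sugar with sialic acid, fell to 2.01 ± 0.163 FPKM in the knockdown, against 3.16 ± 0.155 FPKM in the control (log2 difference -0.47, SE 0.07, limma adjusted p = 0.00529). Leaving out 1 library ended the calls of GALNT7 (lost in every such fit but the one without control replicate 1) and GALNT12 (lost in every such fit but the one without knockdown replicate 3), and the GALNT1 call was lost without knockdown replicate 2 (adjusted p up to 0.127 for GALNT7, 0.0912 for GALNT12 and 0.0518 for GALNT1). Without the filter on low values the calls of GALNT7 and GALNT12 were lost too (limma adjusted p = 0.119 and 0.0741). With the replicate block both were also lost (0.0849 and 0.05255), and that of GALNT7 without the intensity trend (0.07115).

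**Figure D4:**
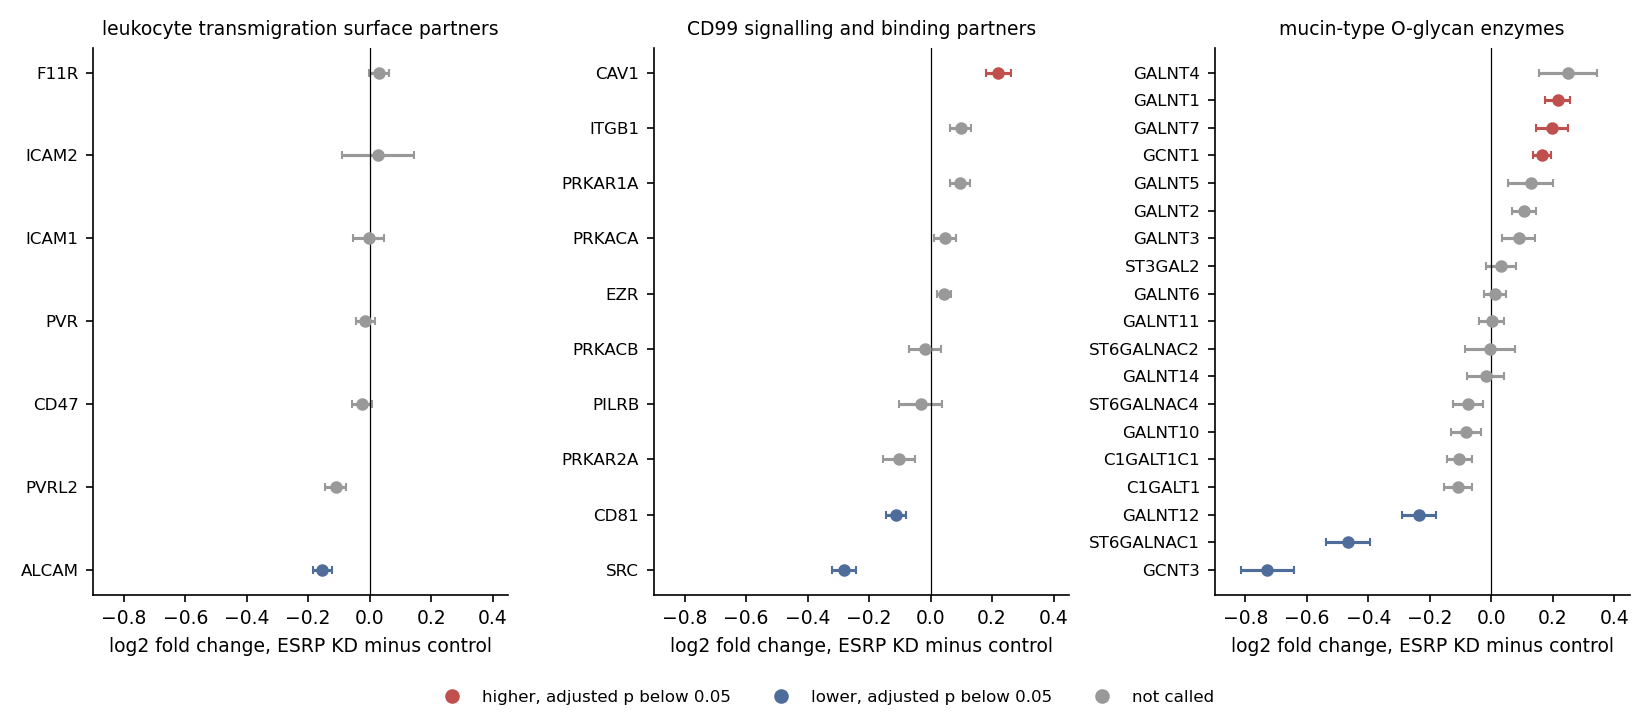
Log2 difference, ESRP KD minus control, on the log2(FPKM + 1) scale with SE, for the tested genes of 3 lists, coloured by the limma call. Called genes lie on both sides of zero, from -0.73 for GCNT3 to 0.22 for CAV1, and all tested genes of the lists lie between -0.73 and 0.25.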

How the data were processed

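RNA from 6 H358 libraries, 3 with ESRP1 and ESRP2 knockdown and 3 with a control knockdown, was sequenced from paired ends with a kit that keeps the strand, per the labels. The authors deposited 1 FPKM value for each Ensembl gene and library. The submitters' processing notes name TopHat 1.4.1, Cuffdiff 2.2.0 and hg19; annotation release and strand setting: not given in the sources used here. Starts were raised by 1 to count from 1. Differences were computed with limma 3.58.1 in R 4.3.3 (eBayes with an intensity trend, two-sided, Benjamini-Hochberg adjusted p threshold 0.05) on log2(FPKM + 1) over 13611 rows (overall mean 1 FPKM or more), knockdown minus control, and the steps were tested on simulated data. Whether the replicates came from separate cultures is not detailed further, so p-values measure the spread between these libraries. Relative depth came from the most common ratio of values under 0.3 FPKM. Gene types and transcript lengths came from GENCODE v29, and promoters from RefSeq (GRCh38.p14), where both members matched. Members, lists and tests were chosen with earlier results of these data known. Named genes were the members and their family, the targeted genes, the rows ranked above and the 5 just below CD99L2, the nearest and any called neighbours, the 5 most similar rows for each member, and up to 4 called genes of each list. TYMS, PRKAR1B, PRKAR2B, GALNT7, GALNT12, the markers and the uncalled list genes were named in addition, with their values known. The 1.3-fold window for rows at a similar level was chosen after the data were seen. Alternatives were a pseudocount of 0.1, no filter or one of 5 FPKM, scaling by median ratios or to TPM, no trend, a replicate block, a 0.5 Mb window and leaving out each library.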

Additional observations from a re-analysis of the deposited data

How the results depend on the processing

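The log2 difference of CD99L2 lay between 1.14 and 1.24 when each library was left out in turn, and it was 1.29 with a pseudocount of 0.1. That of CD99 stayed between -0.04 and -0.01 in every alternative run. The count of all rows called, 2278 with 890 higher and 1388 lower, was 1413 without the filter on low values (497 higher and 916 lower). It was 1433 with a replicate block, of which 491 were higher. Leaving out 1 library gave 1187 (without control replicate 3) to 1983 (without knockdown replicate 3) calls, with 403 to 850 higher and 761 to 1133 lower. The numbers were not taken as pairs, because no label says that a number marks a shared culture or day. The deviations of libraries with the same number had an r of -0.0171, 0.0625 and 0.0701 for numbers 1, 2 and 3. Between libraries with different numbers, r lay between -0.142 and 0.0874. The same-number values fall inside that range, and such small values do not decide whether the numbers mark pairs. Of the 3 gene lists, 10 genes were called in all, 7 with the replicate block and 6 to 8 when 1 library was left out, the 6 occurring without knockdown replicate 2, control replicate 2 or control replicate 3. The 1 called neighbour was no longer called without the filter, with the replicate block or in the 0.5 Mb window, each of which gave 0 calls, and leaving out 1 library gave 0 to 2. GCNT3 and ST6GALNAC1 have no value under the filter of 5 FPKM, which removes them. Where calls were lost, the cause was not tested. In the fits with 2 libraries in a group, the pooled spread carries the test. FPKM values give no read totals, so no counting interval could be set on any level.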

Other observations

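The replicate spread of the members was compared with that of rows with a similar mean over the 6 libraries. The coefficient of variation of CD99 was 0.652% in the knockdown, against 1.79% in the control, and of the 705 rows within 1.3-fold of its mean, 97.3% varied more in the knockdown, against 65.0% in the control. That of CD99L2 was 2.32% in the knockdown, against 7.91% in the control. Of the 2042 rows within 1.3-fold of its mean over the 6 libraries, 80.5% varied more in the knockdown, against 11.4% in the control. CD99L2 itself lay above that window in the knockdown, at 18.2 FPKM, and below it in the control, at 7.37 FPKM. These shares therefore do not compare CD99L2 with rows at its own level in either group.

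On the X chromosome, which holds both members, 463 rows were tested and 70 were called by limma (15.1%, against 16.7% over all chromosomes), of which 46 were higher (9.94%, against 6.54% of all rows) and 24 lower (5.18%, against 10.2% of all rows). The median log2 difference of the tested X rows was 0.03. Beside CD99L2, the largest differences there among rows above 0 in every library were those of MAGED2, a gene of the MAGE family, at 68.4 FPKM in the knockdown, against 48.2 FPKM in the control (log2 difference 0.50), and NAP1L3, of the nucleosome assembly protein family, at 2.98 FPKM in the knockdown, against 1.89 FPKM in the control (0.46). Both were picked after their values were seen.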
